A study of Mus musculus with 3 samples.

Results

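The Epcam-high cells of the D10 culture were the 155 cells that carried cluster code 8 in the deposited table of that culture, out of 7821 culture cells (1.98%) and 15827 cells in the 3 single-cell libraries of the study. They were chosen by that code alone, and the study annotated the code as skin, because it placed culture cells in clusters defined on embryonic tail. The culture came from mESCs that carry the ScxGFP tendon reporter. They were aggregated into embryoid bodies with the BMP inhibitor LDN-193189 at 500 nM, driven toward paraxial mesoderm (PM) with LDN-193189 and the Wnt agonist CHIR at 5 µM until day 6 (D6), and then plated and given FGF2 at 10 ng/ml, TGFβ1 at 10 ng/ml and the smoothened agonist SAG at 100 nM until day 10 (D10). The D10 culture was not sorted for ScxGFP before capture. It was compared with the D6 PM library, which had not received TGFβ1, SAG or FGF2, and with the E14.5 mouse tail. The tail's own code 8 cells (82 of 2052) served as the skin reference. The study annotated a further cluster as skin, which by its cell number is tail code 5 (121 cells). That cluster was not used as a skin reference here. Each condition was 1 library, so that no p-values were computed. The codes of the D6 PM table come from a separate clustering and do not match the codes of the culture and the tail.

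Epithelia are sheets of cells joined by E-cadherin, claudins and desmosomes and filled with keratins, and the keratins and transcription factors differ with their origin. Simple epithelia such as gut, liver and yolk sac endoderm hold Krt8, Krt18 and Krt19, and embryonic endoderm depends on Foxa1, Foxa2, Sox17 and Gata factors. Stratified epidermis depends on Trp63 and builds Krt5 and Krt14 in its basal layer and Krt1 and Krt10 above it.

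The 155 cells held 1025104 UMIs in all, between 1872 and 16579 a cell with a median of 6129, close to the median of 5601 in the other 7666 culture cells. The tail code 8 cells were deeper, with a median of 20468. Levels are CPM, the UMIs of a gene scaled to 1000000 UMIs summed over the cells of a set, with exact Poisson intervals at 95%, and folds as ratios of these levels. All intervals cover counting error only and say nothing of the spread between cultures. A doublet caller marked 2 of the 155 cells (1.29%) and 116 of all culture cells (1.48%), and these were kept. The culture shared 10 cell barcodes with D6 PM and 4 with the tail, none of them in a code 8 cell. When the culture was clustered on its own, 153 of the 155 cells fell in 1 group of 236 cells, together with 83 cells of other codes, 38 of them of code 7. Those 83 cells were shallower, with a median of 2807 UMIs. They held 671 of the 691 Afp UMIs (97.1%) and 356 of the 843 Pga5 UMIs (42.2%) found outside code 8, so that folds over the other culture cells are given with and without them for the serum protein genes and Pga5 where both were computed.

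General epithelial genes were high in the code 8 cells. Epcam, the adhesion molecule used to mark epithelia, had a UMI in 150 of the 155 cells. Its level was 1563 CPM (1487 to 1641) in the code 8 cells, 287 in the other culture cells, 593 in tail code 8 and 1097 in D6 PM code 1, the largest D6 cluster. That made it 5.45-fold (5.18 to 5.74) higher than in the other culture cells. The other culture cells include a Pou5f1-high cluster (code 3, 1088 cells), and mESCs also make Epcam; without that cluster the fold was 10.97. By its cell number, code 3 is the cluster that the study annotated as fibrocartilage, but in the deposited table it was at 545 CPM of Pou5f1, 131 of Nanog and 5.97 of the cartilage factor Sox9, so it is called here by its leading gene. Krt8, a keratin of simple epithelia, had a UMI in 153 cells and stood at 2914 CPM (2810 to 3020) against 38.8, which was 75.1-fold higher. Of the 20 general epithelial genes listed, all 20 passed the detection filter (1 or more UMIs in 10% of the cells of one of the sets compared), and 19 were at least 2-fold higher than in the other culture cells and none lower. Over all 8723 genes that passed, 997 were at least 2-fold higher, or 11.4%, and 900 lower, or 10.3%. The gene that did not pass 2-fold was Elf3, at 30.2 CPM against 18.5. Krt8, Krt19 and Krt7 had a UMI in 6.29%, 5.84% and 4.40% of the other culture cells, so that they entered through the code 8 cells alone. For such genes the direction was largely set by the filter. The cells were also clustered on expression, so that the count is a description and no test of the label.

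Keratin partners went together. Krt18, which pairs with Krt8, was at 3687 CPM against 102, Krt19 at 1270 against 20.5, and Krt7, a keratin of ducts and lining epithelia, at 545 against 9.49. Cell junction genes showed the same direction. Cdh1, which encodes E-cadherin, was at 238 CPM against 41.5. Dsp, the desmosomal plaque protein, was at 292 against 4.66, and Cldn6, a tight junction claudin of embryonic epithelia, was at 404 against 16.0. Of 32 listed junction genes, 28 passed the detection filter. Of these, 25 were at least 2-fold higher and none lower, beside 11.4% and 10.3% of all genes. Genes such as Cldn6, with a UMI in 6.76% of the other culture cells, entered through the code 8 cells alone. Their direction was largely set by the filter, and the count is a description. Tjp1, a scaffold that many cell types share, was among the 3 in between, at 150 CPM against 146.

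**Figure D1:**
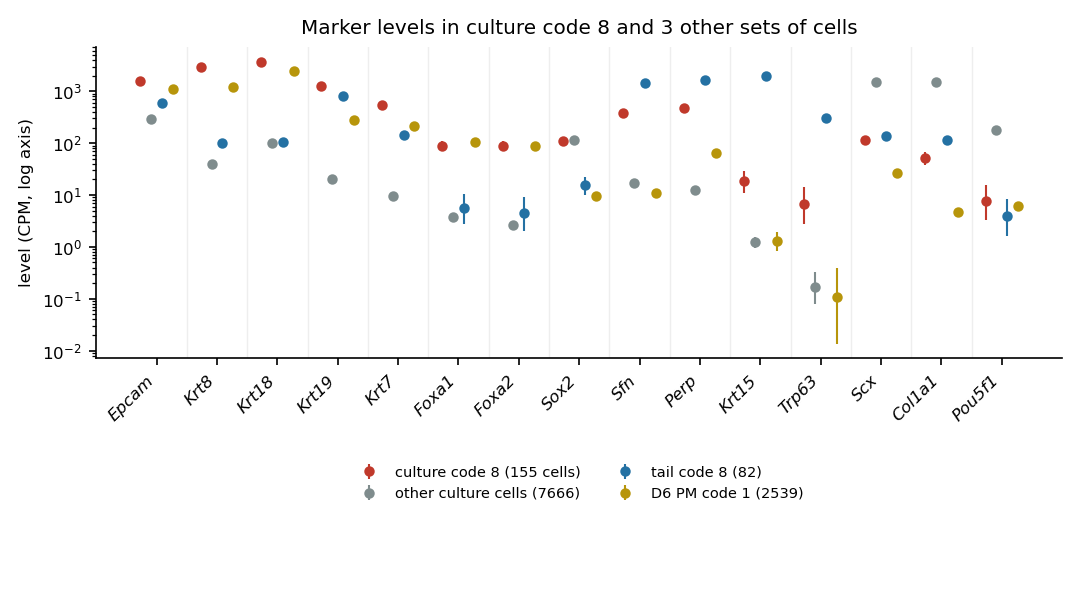
Level of 15 marker genes in CPM on a log axis in culture code 8, the other culture cells, tail code 8 and D6 PM code 1, with bars for 95% Poisson intervals (most are smaller than the points). Krt8 and Krt18 of the code 8 cells lie beside D6 PM code 1 and far above tail code 8, whereas Krt15 and Trp63 lie far below tail code 8.

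Against the skin of the tail the keratins differed. Krt5, the keratin of basal epidermis, had 0 UMIs in the 155 cells and 1662 CPM in tail code 8, which made it at least 568-fold lower on a floor of 3 counts over the 155 cells. Krt14, its partner, had 4 UMIs, all in 1 cell (3.90 CPM), against 2446 CPM. Trp63, the transcription factor of stratified epithelia, was at 6.83 CPM (2.75 to 14.1) from 7 UMIs against 311. Conversely Krt8 was 28.4-fold and Krt18 34.6-fold higher than in the tail cells, which had 103 and 107 CPM. Of the 21 listed epidermal genes, 20 passed the filter in this comparison, 19 were at least 2-fold lower in the code 8 cells and none higher. Only 4 of the 21 passed against the other culture cells, so that most entered here through tail code 8 alone. Their direction was largely set by the filter, and the count is a description. The background was 1540 genes higher (14.0%) and 1874 lower (17.1%) of 10991. The exception was Fgfbp1, a secreted FGF-binding protein, at 384 CPM against 358.

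The contrast was also present at equal depth. When every cell was thinned to 3000 UMIs, 148 of the 155 cells remained and 7 shallower ones were left out, and all 82 tail code 8 cells remained. Krt14 was then detected in 0.676% of the code 8 cells and 81.7% of tail code 8, and Trp63 in 2.70% and 57.3%. Krt8 was detected in 98.0% (98.7% before thinning) and 9.76%. Some genes named for epidermis were present at intermediate levels. Sfn, the epithelial protein stratifin, was at 379 CPM, 22.6-fold above the other culture cells and 3.73-fold below tail code 8. Perp, a desmosome component, was at 484 CPM, 39.2-fold above and 3.38-fold below. Krtdap, Tfap2b and Ivl had 0 UMIs, and Ivl had 0 in tail code 8 as well. Tail code 8 also held haemoglobin RNA, with 2041 CPM of Hbb-bs against 0.976 (1 UMI) in the culture cells; its part in the tail values was not tested.

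Transcription factors of endoderm marked the code 8 cells. Foxa1 was at 89.7 CPM (72.3 to 110) from 60 cells, against 3.82 in the other culture cells, a fold of 23.5 (18.2 to 30.2), 5.74 in tail code 8 and 103 in D6 PM code 1. Foxa2, its close relative, was at 88.8 CPM against 2.65, 4.59 and 86.6. Of the 13 factors listed, 10 passed the filter and all 10 were at least 2-fold higher than in the other culture cells, as were 11.4% of all genes. Foxa1 and Foxa2 had a UMI in 2.20% and 1.02% of the other culture cells, so that they entered through the code 8 cells alone. For such genes the direction was largely set by the filter. The listed factors that did not pass included Hnf4a with 7 UMIs and Prdm1 at 3.90 CPM against 4.64. Thinned to 3000 UMIs, Foxa1 was detected in 23.0% (16.5 to 30.6) of the code 8 cells, 1.32% of the other culture cells, 2.44% of tail code 8 and 26.3% of D6 PM code 1, and before thinning in 38.7% and 2.20% of the culture sets. The share in the other culture cells, with a like median depth, is the background against which the code 8 share is read.

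The factors were not even. Hhex, a factor of early foregut and liver, was at 84.9 CPM against 5.80, and had 0 UMIs in tail code 8. Onecut1, a factor of liver and pancreas progenitors, was at 29.3 CPM against 0.248 in the other culture cells and 0.55 in D6 PM code 1. Sox17, a factor of early endoderm, was at 73.2 CPM (57.5 to 91.7), 12.7-fold above the other culture cells but 7.10-fold below D6 PM code 1 with its 519 CPM. Sox17 was also concentrated, with UMIs in 23 of the 155 cells.

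Genes of secreted serum proteins, which fetal liver and yolk sac endoderm share, stood far above the other culture cells. Afp, the fetal counterpart of albumin, was at 1193 CPM (1127 to 1262) against 13.2 in the other culture cells, 0 in tail code 8 and 0.77 in D6 PM code 1. Its fold over the other culture cells was 90.4 (82.3 to 99.4), and 3103 once the 83 cells that clustered with code 8 were left out of them. Thinned, it was detected in 37.2% (29.4 to 45.5) of the code 8 cells and 0.184% of the others (43.2% and 0.378% before thinning). Rbp4, the retinol carrier of plasma, was at 1844 CPM against 10.4, but 1 cell held 26.2% of its UMIs. Ttr, which carries thyroid hormone and Rbp4, was at 447 against 2.56, and Vtn, the adhesion protein vitronectin, at 394 against 2.12. Without the 83 cells the folds were 370 for Rbp4, 528 for Ttr and 554 for Vtn.

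Less abundant members showed the same direction. Serpina1b, an antitrypsin gene, was at 133 CPM against 0.84 (158-fold, and 986-fold without the 83 cells), and its copies Serpina1a, Serpina1c and Serpina1e were at 86.8, 220 and 93.6. Reads that mapped to more than 1 place were ignored, so that the split between these near-identical copies is uncertain. Fgb, a fibrinogen chain, was at 140 CPM against 1.34 (105-fold, and 812-fold without the 83 cells), Ambp at 95.6 against 0.84, and Alb, albumin itself, at 33.2 (23 to 46.3) from 23 cells against 1.72. Without the 83 cells the Alb fold was 575 in place of 19.3. Of 40 serum protein genes listed, 36 had a row and 16 passed the filter; 11 of these were higher and 1 lower than in the other culture cells, beside 11.4% and 10.3% of all genes. The lower one was Serpinf1, at 4.88 CPM against 65.3. Afp, Ttr, Vtn and Rbp4 had a UMI in 0.378%, 0.548%, 0.561% and 2.87% of the other culture cells, so that they entered through the code 8 cells alone. For such genes the direction was largely set by the filter, and the count is a description.

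The list for visceral endoderm and yolk sac was incomplete in these cells. Of its 26 genes, 23 had a row and 12 passed the filter, 9 of them higher and none lower, beside 11.4% and 10.3% of all genes. Afp, Ttr, Vtn and Rbp4 are on this list too and entered through the code 8 cells alone, so that the count is a description. Apob, Amn and Sox7 had 0 UMIs. Cubn, the endocytic receptor of yolk sac, had 1 UMI, and its partner Lrp2 was at 17.6 CPM against 30.9. Apoa1 was at 39.0 CPM from 9 cells, and 1 cell held 70% of those UMIs. Apoe, the lipid carrier of many tissues, was at 1143 CPM against 891, a fold of 1.28, and of 3.29 without the Pou5f1-high cluster. Of the 8 liver genes listed, 6 had a row and 3 passed, all 3 higher, beside 11.4% of all genes. Alb, with a UMI in 14.8% of the code 8 cells and 0.0913% of the others, entered through the code 8 cells alone. For such genes the direction was largely set by the filter. Ahsg and Apoh had 0 UMIs. A count of 0 in the 155 cells allows up to 2.93 CPM. Apoa4, Apoc2, Apoc3, Fga, Tat and Fabp1 were not analysed here.

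The promoters of 12 of these serum protein genes were read from RefSeq on GRCm38.p6, 150 bases upstream of the annotated start, because the genes were high in the code 8 cells. Ttr was not read. The genes and motifs were chosen after the levels were seen. TGTTTGC, a variant of the FOXA motif, was found on either strand in 7 of the 12 (58.3%) and in 2.44% of all 32851 promoters in the table. TGTTTAC, the usual FOXA letters, was found in none of the 12 and in 1.80% of all. The 4 Serpina1 copies have promoters that are nearly the same, so that they are not 4 separate cases. The promoters of Afp, Alb, Serpina1b and Ambp, which hold the variant, are shown 5′ to 3′ on the strand of the gene, with the match in capitals (GCAAACA is the same motif on the other strand). No match overlaps another. A match is a run of letters and not a bound site. The promoters of 8 of the 10 genes that lead group 2, described below, were also searched: none held TGTTTGC and 1 held TGTTTAC, the usual FOXA letters. The letters TAATCC of OTX and GSC factors were found in 1 of those 8, in none of the 12 and in 3.60% of all. With 250 bases searched, TGTTTGC was in 7 of the 12, 1 of the 8 and 4.30% of all promoters. TGTTTAC was then in 1 of the 12, 1 of the 8 and 3.17% of all. TAATCC was then in none of the 12, 2 of the 8 and 6.25% of all.
Afp, chr5:90490564-90490713, plus strand: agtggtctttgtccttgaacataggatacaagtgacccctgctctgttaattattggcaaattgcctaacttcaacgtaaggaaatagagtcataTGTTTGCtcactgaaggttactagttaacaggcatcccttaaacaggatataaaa
Alb, chr5:90460720-90460869, plus strand: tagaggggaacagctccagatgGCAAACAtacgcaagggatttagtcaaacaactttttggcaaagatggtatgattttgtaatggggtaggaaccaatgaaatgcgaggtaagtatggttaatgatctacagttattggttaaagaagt
Serpina1b, chr12:103738190-103738339, minus strand: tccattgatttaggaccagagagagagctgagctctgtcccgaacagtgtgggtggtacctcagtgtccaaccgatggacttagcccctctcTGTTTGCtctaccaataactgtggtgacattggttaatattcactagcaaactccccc
Ambp, chr4:63154173-63154322, minus strand: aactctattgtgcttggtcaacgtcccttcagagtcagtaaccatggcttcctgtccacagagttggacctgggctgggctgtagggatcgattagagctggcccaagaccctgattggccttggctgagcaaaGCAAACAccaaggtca

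The variant began 55 bases before the start in Afp, 128 in Alb, 58 in Serpina1b and 16 in Ambp. Binding of Foxa1 or Foxa2 to these promoters was not tested.

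The 155 cells did not hold these genes evenly. Clustering the code 8 cells alone gave 4 groups at the resolution used, with 61, 41, 31 and 22 cells. The groups were made from these same genes, so that their levels are a description, and a second resolution merged groups 1 and 3 (3 groups). Another gave 8 groups, 2 of which mixed cells of the 4: one held 9 cells of group 1 and 9 of group 4, and the other 15 of group 2 and 3 of group 3. Median depth was 6075, 6328, 5239 and 7012.5 UMIs, and the caller marked 1 doublet in group 1 and 1 in group 2. Epcam and Krt8 were high in each, with Krt8 at 2370, 4359, 2704 and 2059 CPM in groups 1 to 4. Afp was at 2250, 0, 11.3 and 1899 CPM in the same order, and Pga5, a gastric pepsinogen, at 20.3, 15102, 576 and 0.

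**Figure D2:**
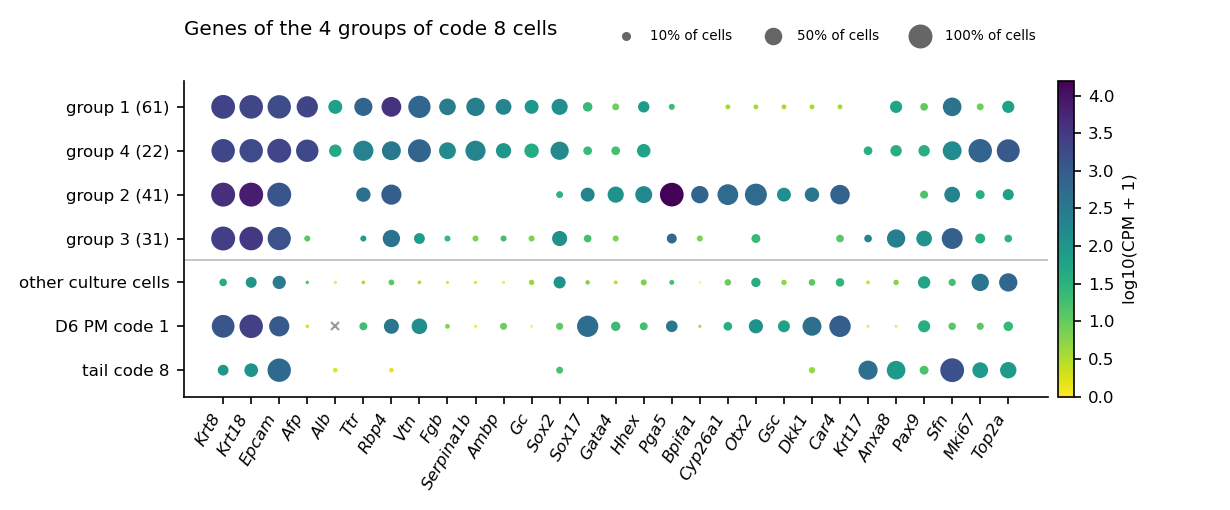
Level (colour, log10 of CPM + 1) and share of cells with a UMI (dot area) of 29 genes in the 4 groups of code 8 cells and in 3 comparison sets; cell numbers stand in brackets, and the cross marks Alb, which has no row in the D6 PM table. Afp, Vtn and Serpina1b are higher in groups 1 and 4 than in groups 2 and 3, and among the 4 groups Pga5, Cyp26a1 and Otx2 are highest in group 2, and Sfn and Anxa8 in group 3.

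In group 1 (61 cells) the serum protein genes had a summed level of 11792 CPM, against 4395 in the other code 8 cells. Rbp4 was at 3804 CPM there and at 917, 435 and 325 in groups 2, 3 and 4, but a few cells carried the group 1 level: the median cell was at 237 CPM in group 1 and 329 in group 2, and the highest in group 1 was at 70096. It had a UMI in 65.6% of group 1 and 68.3% of group 2. Vtn was at 672 in group 1, 0 in group 2, 73.4 in group 3 and 719 in group 4, and Serpina1b at 251, 0, 5.65 and 205. Of the listed serum protein genes, 10 of the 15 that passed were at least 2-fold higher in group 1 than in the other code 8 cells and none lower, where 7.43% and 7.83% of all genes were. Alb was found in groups 1 and 4 only, at 65.9 and 45.6 CPM, and had 0 UMIs in groups 2 and 3.

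Some of the genes that lead group 1 by fold came from very few cells. Gcg, the glucagon precursor, had 854 UMIs in 2 cells, 727 in one and 127 in the other. The same 2 cells held 140 and 159 UMIs of Pyy, a gut hormone, 24 and 112 of Ghrl, the ghrelin gene, and 2 and 4 of Isl1, a factor of endocrine cells. Neither had a UMI of Sst, Neurod1 or Neurog3. Cartpt, also a peptide precursor, was found in 2 cells. Ghrl was spread further, with UMIs in 15 cells, most of them in group 2, where no cell held more than 6. Leaving the 2 Gcg cells out lowered the Rbp4 fold over the other culture cells from 177 to 111.

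Group 2 (41 cells) was led by Bpifa1, Cyp26a1, Dkk1, Car4, Ccl17, Reg4, Pga5, Gsc, Nptx2 and Otx2. Of the listed endoderm factors, 5 of the 10 that passed were at least 2-fold higher there than in the other code 8 cells and 3 lower, Foxa1 and Onecut1 among the lower ones; of all genes, 9.75% were higher and 17.0% lower. Both foregut genes that passed, Sox2 and Pax9, were lower. Otx2, a factor of anterior embryo and anterior endoderm, was at 590 CPM, against 2.53, 22.6 and 0 in groups 1, 3 and 4. Sox17 was at 212 CPM, against 22.8, 16.9 and 22.8, and Gata4 at 119 against 7.6, 5.65 and 17.1. The secreted antagonists Dkk1 (Wnt) and Cer1 (Nodal, BMP and Wnt) were at 349 and 111 CPM, and Lefty1 and Lefty2, targets and inhibitors of Nodal, at 284 and 201. Cyp26a1, which breaks down retinoic acid, was at 554 CPM in group 2 and at 2.53, 0 and 0 elsewhere. Gsc and Lhx1, factors of the organizer region, were at 133 and 180 CPM. Bpifa1, an airway secretory protein, was at 701, and Reg4, a gut secretory protein, at 140 with no UMI in the other culture cells.

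Group 2 was also where endocytosis and transport genes were highest. Of that list, 11 of the 17 that passed were at least 2-fold higher than in the other code 8 cells and none lower. Of all genes, 9.75% were higher and 17.0% lower. The summed level of the list was 12693 CPM against 3646. Lrpap1, a chaperone of endocytic receptors, was at 2726 CPM, against 271, 243 and 177 in groups 1, 3 and 4. Ctsl, a lysosomal protease, was at 3126 against 1244, 1061 and 656, and Slc2a1, a glucose transporter, at 1622 against 274, 1056 and 222. Of the serum protein list, 1 of the 15 genes that passed was at least 2-fold higher in group 2 and 9 were lower, and the summed level was 4161 CPM against 8389 in the other code 8 cells. Most of it came from Apoe at 1615, Rbp4 at 917, Clu at 568, Ttr at 468 (from 13 of the 41 cells) and Fn1 at 324. Fgfbp1 was at 1208 CPM in group 2 and at 71, 113 and 57 in groups 1, 3 and 4, and without group 2 it was 0.217-fold of tail code 8.

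Several totals of the 155 cells rest on group 2. Without it, the Pga5 fold over the other culture cells was 9.15 in place of 261 (449 without the 83 cells), the Sox17 fold 3.71 in place of 12.7, and the Gata4 fold 5.28 in place of 21.98. Cyp26a1, Otx2, Dkk1 and Car4 then turned from higher to lower than in the other culture cells. Foxa1 was found in each group, at 104, 46.8, 96 and 120 CPM in groups 1 to 4, and Foxa2 was at 83.6, 108, 73.4 and 85.5.

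Group 3 (31 cells) held the genes shared with lining and stratified epithelia. Anxa8 was at 260 CPM, Sfn at 847 and Perp at 875. The few UMIs of basal epidermal genes among the 155 cells lay mostly here, with Krt15 at 90.3 CPM, Trp63 at 33.9 and Krt14 at 22.6. Of the epidermal list, 9 genes passed the filter here, against 5, 5 and 4 for groups 1, 2 and 4. A gene could enter through group 3 alone, and its direction was then largely set by the filter. Of the 9, 7 were at least 2-fold higher than in the other code 8 cells and 1 lower (6.76% and 11.3% of all genes). That count is a description. The lower one was Fgfbp1. Those levels stayed below tail code 8, which had 1935 CPM of Krt15 and 311 of Trp63. Krt17 was at 203 CPM from 2 of the 31 cells, and 1 cell held 52.4% of its UMIs over the 155 cells. Pax9, a factor of pharyngeal endoderm and sclerotome, was at 107 CPM, and Upk1b, a uroplakin, at 96. Sox17 and Hhex were low, at 16.9 and 0 CPM.

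Group 4 (22 cells) was led by genes of cell division. Mki67, the proliferation marker, was at 719 CPM, against 7.6, 36 and 33.9 in groups 1, 2 and 3. Top2a was at 1112, against 58.3, 64.7 and 28.2. Of the 20 proliferation genes, 16 were at least 2-fold higher than in the other code 8 cells and none lower, where 12.3% and 10.8% of all genes were. Of the serum protein list, 14 passed, 3 were higher and 3 lower, with a summed level of 6929 CPM against 7307. Afp and Vtn, given above, were near their group 1 levels and Rbp4 was below. Over all 155 cells, 13 of 20 proliferation genes were lower than in the other culture cells and none higher. Of all genes, 10.3% were lower and 11.4% higher. Mki67 was at 141 CPM (119 to 166) against 374. Thinned, 16.9% of the code 8 cells and 42.4% of the other culture cells had an Mki67 UMI.

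Afp and Pga5 marked separate cells. Of the 155 cells, 67 had an Afp UMI and 46 a Pga5 UMI, and 2 had both, where independence would give 19.9. Thinned to 3000 UMIs, 1 cell had both, where independence would give 15.6. The groups above already differed in Afp and Pga5, so that the comparison with independence restates them and is a description. Conversely, 21 of the 23 Alb cells had Afp, and 44 cells had both Afp and Serpina1b, where independence would give 21.6. Within the thinned cells, 22 of the 23 with Cyp26a1 and 19 of the 22 with Otx2 also had Pga5. Sox17 and Sox2, the latter a factor of anterior foregut and of neural and pluripotent cells, shared 1 cell out of 23 and 50.

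**Figure D3:**
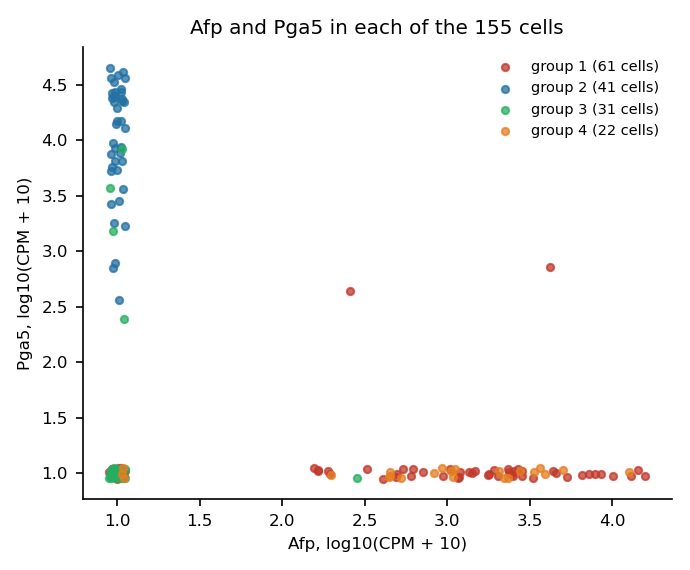
Afp against Pga5 in each of the 155 code 8 cells, as log10 of CPM + 10, coloured by group; cells at 0 lie at 1 on either axis and were moved by a small random amount so that they can be seen. The 2 cells with both genes are in group 1.

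Other epithelia were checked by their defining genes. Sox2 was at 109 CPM in the code 8 cells and 115 in the other culture cells, but 9.74 in D6 PM code 1, and it followed groups 1, 3 and 4 (134, 124 and 165 CPM) rather than group 2 (28.8). The Pou5f1-high cluster among the other culture cells was at 373 CPM, and the Sox2 fold was 2.66 without it. Pou5f1 was at 7.80 CPM in the code 8 cells against 183. Of the 11 intestinal genes listed, 2 passed, Krt20 (49.8 CPM against 0.955) higher and Fabp2 (6.83 against 57.2) lower, with a summed level of 72.2 CPM against 65.1, and 7 had 0 UMIs, including Cdx1, Cdx2 and Cdx4, which pattern the hindgut. Barx1, a factor of stomach mesenchyme, had 0 UMIs. Of the lung and thyroid list, 3 genes passed against the other culture cells, 1 higher and 2 lower. Of the foregut list 2 passed, neither of them 2-fold higher or lower. For pancreas and duodenum, and for urothelium, 1 gene each passed and was higher. Of the 8 notochord and node genes, 3 passed, 2 of them higher and 1 lower: Foxa2, given above, Foxj1, a factor of ciliated cells, at 38.0 CPM against 0.611, and Sox9 at 30.2 against 95.2. Shh, a ligand of foregut and notochord, was at 10.7 CPM against 0.401, and T, the notochord and mesoderm factor, had 0. Of the 9 neural genes, 3 passed, Sox2, Nes and Msi1, none of them 2-fold higher or lower; Sox1, Sox3 and Fabp7 had 0 UMIs, and the summed level was 228 CPM against 273. Of the mesothelium list, 2 of 7 genes passed, both higher (Krt19, and Upk1b at 30.2 CPM against 0.25), and Wt1 and Upk3b had 0 UMIs. Of the trophoblast list, 2 of 10 passed, both higher (Krt7, and Gata3 at 32.2 CPM against 1.58), and Hand1, Gata2 and Tfap2c had 0. Of the nephric list, 3 of 10 passed, all 3 higher, with Gata3 and Lhx1 (51.7 CPM against 0.859) among them and Pax2, Pax8 and Ret at 0. The shares over all genes were those given with the general epithelial genes. No listed marker of endothelium, blood or muscle passed the filter in the comparison with the other culture cells. Against tail code 8, 4 blood genes passed and all 4 were lower, beside 17.1% of all genes. These 4 passed through tail code 8 alone, so that their direction was largely set by the filter. Nkx2-1, Sftpb, Pdx1, Cdh16 and Noto were not analysed here.

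Hox genes, which record position along the body axis, were at low levels. Of 39 listed, 24 had 0 UMIs in the 155 cells. Their summed level was 28.3 CPM, against 336 in the other culture cells, 883 in tail code 8 and 90.4 in D6 PM code 1. All 6 that passed the filter against the other culture cells were lower, and 26 of 27 against tail code 8, beside 10.3% and 17.1% of all genes. The filter can admit a gene through the comparison set alone, as it did for most of the 27. Such genes tend to come out lower, so that these counts are a description. Hoxa9 had 0 UMIs against 110 CPM in tail code 8, and Hoxc8 0 against 79.2.

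Tendon and matrix genes were low but not absent. Scx, the tendon transcription factor behind the reporter, was at 115 CPM (95.3 to 138) against 1503, 13.1-fold lower, with a UMI in 46 of the 155 cells. Thinned, 18.9% of the code 8 cells and 68.3% of the other culture cells had one. Col1a1, the main collagen of tendon, was at 51.7 CPM against 1484, from 12 cells. All 14 tendon genes that passed, of 15 listed, were at least 2-fold lower, as were 10.3% of all genes. Col1a1 had a UMI in 7.74% of the code 8 cells and 71.0% of the others, so that it entered through the other culture cells alone. For such genes the direction was largely set by the filter, and the count is a description. The summed level of the list was 484 CPM against 9335. Within the code 8 cells the summed level was highest in group 2, at 1043 CPM against 276 in the others. There, 7 of the 9 that passed were at least 2-fold higher than in the other code 8 cells and none lower, where 9.75% and 17.0% of all genes were. Scx itself was not highest in group 2, at 132, 108, 135 and 68.4 CPM in groups 1 to 4, with a UMI in 41.0%, 21.95%, 9.68% and 40.9% of their cells. Their part in the group 2 values was not tested. Without group 2 the Col1a1 level was 0.0126-fold of the other culture cells. When the 46 Scx cells were left out, Col1a1 was 0.00497-fold of the other culture cells, and before that 0.0348-fold. RNA from the surrounding tendon cells was not measured in empty droplets, and its part in the Scx UMIs was not tested.

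Of the 16 genes of epithelial-mesenchymal transition listed, 11 passed, 5 were higher, 3 lower and 3 neither, beside 11.4% and 10.3% of all genes higher and lower. Zeb1, a repressor of Cdh1, was at 6.83 CPM against 84.0, Snai1 at 1.95 against 22.5, and Snai2 had 0 UMIs. Esrp2 and Ovol2, which maintain epithelial splicing and identity, were at 23.4 and 30.2 CPM, 25.03-fold and 12.8-fold higher. Vim, the intermediate filament of mesenchyme, was at 1112 CPM against 1143, a fold of 0.973 (0.917 to 1.03). That was 5.54-fold above tail code 8. Cdh2, N-cadherin, was at 30.2 CPM against 42.2.

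The basement membrane genes had members in both directions. Lamb3, a laminin chain of epithelia, was at 39.0 CPM, 92.9-fold above the other culture cells. Lama5 was at 162 CPM, 10.6-fold higher, and Itgb4, the hemidesmosome integrin, at 67.3, 18.8-fold higher. Col18a1 was lower at 169 against 419, and Nid1, the linker nidogen, lower at 25.4 against 190. Lama1, the laminin chain of early embryo and parietal endoderm, was at 18.5 against 64.4. Of the 12 parietal endoderm genes, 10 passed, 1 was higher and 6 lower. Of the 26 basement membrane genes, 21 passed, 12 were higher and 3 lower. Of all genes, 11.4% were higher and 10.3% lower, so that the share of lower basement membrane genes is near that of all genes.

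The culture contained SAG, TGFβ1 and FGF2, and several genes that read these signals were lower in the code 8 cells than in the other culture cells. Ptch1, a receptor and target of hedgehog, was at 46.8 CPM (34.5 to 62.1) against 189, 4.04-fold lower, and at 60.4 in D6 PM code 1, before SAG was given. Hhip, also a target, was at 3.90 against 65.4, and Gli1 had 1 UMI against 14.8 CPM. Smo, the protein that SAG binds, was at 59.5 against 69.1. Of the 14 hedgehog genes, 6 passed, 5 were lower and none higher. Among FGF targets, Dusp6 was at 15.6 CPM against 94.9 and Etv5 had 1 UMI against 33.0. Fgfr1, the mesenchymal receptor, was at 45.8 against 174, whereas Fgfr2 and Fgfr3 were higher, at 75.1 against 22.9 and 24.4 against 1.60. Tgfbr1 was at 46.8 against 54.9, and Smad7, a TGFβ feedback inhibitor, at 138 against 67.6. Of the 26 receptors and targets listed, 19 passed, 4 were higher and 7 lower, beside 11.4% and 10.3% of all genes.

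Ligands and retinoic acid genes had members in both directions. Bmp2 was at 92.7 CPM against 5.54 and Bmp4 at 9.76 against 59.4. Pdgfa, a growth factor that epithelia make for mesenchyme, was at 277 against 35.4. Id2, a BMP target, was at 190 CPM against 77.5 over all code 8 cells but at 7.19 in group 2. Aldh1a3, which makes retinoic acid, was at 7.80 against 72.9, and Rarb, a retinoic acid receptor and target, at 26.3 against 6.89. Of the 17 retinoic acid genes, 12 passed, 5 were higher and 4 lower, with a summed level of 3279 CPM against 753. Of the 37 ligands and antagonists, 16 passed, 5 were higher and 3 lower, where 11.4% and 10.3% of all genes were.

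CDK inhibitors stop the cell cycle. Cdkn1a, p21, was at 971 CPM (911 to 1033) against 447, and at 67.7 in tail code 8 and 339 in D6 PM code 1. It was at 809 to 1092 CPM in each of the 4 groups. Cdkn2a, the p16 and Arf gene, was at 313 CPM against 69.6, with 0.574 in tail code 8 and 8.31 in D6 PM code 1, and Cdkn2b, its neighbour, at 281 against 57.4. Cdkn2a was at 748 CPM in group 2 and 39.9 in group 4. Of 11 listed, 10 passed, 3 were higher and 2 lower, where 11.4% and 10.3% of all genes were; the lower ones were Cdkn1c and Cdkn2d.

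Of all clusters with at least 30 cells, the code 8 cells were most like a cluster of the day 6 library. Over 22543 genes at log2(CPM + 1), Pearson's r was 0.937 and Spearman's rho 0.909 with D6 PM code 1, 0.931 with D6 PM code 3 and 0.903 with the nearest culture cluster, code 5. With tail code 8 it was 0.882, which ranked 11 among all clusters but highest among those of the tail. The next tail cluster was code 3 at 0.867. All clusters ranked above tail code 8 came from the D10 culture or D6 PM, so that cell type and library cannot be told apart in this rank. The lowest was tail code 12 at 0.534. Over the 435 genes of the lists that could be used, r was 0.794 with D6 PM code 1 and 0.430 with tail code 8. Genes are not independent replicates, and r also moves with the depth of a cluster, so that it is a description. Groups 1, 2 and 3 were most like D6 PM code 1 (0.917, 0.898 and 0.886), group 3 having tail code 8 at rank 6 (0.856; 0.565 over the listed genes), and group 4 most like D6 PM code 3 (0.896), which had 445 CPM of Mki67 against 10.8 in D6 PM code 1. Among the groups, r ran from 0.767 between groups 2 and 4 to 0.846 between groups 1 and 4.

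**Figure D4:**
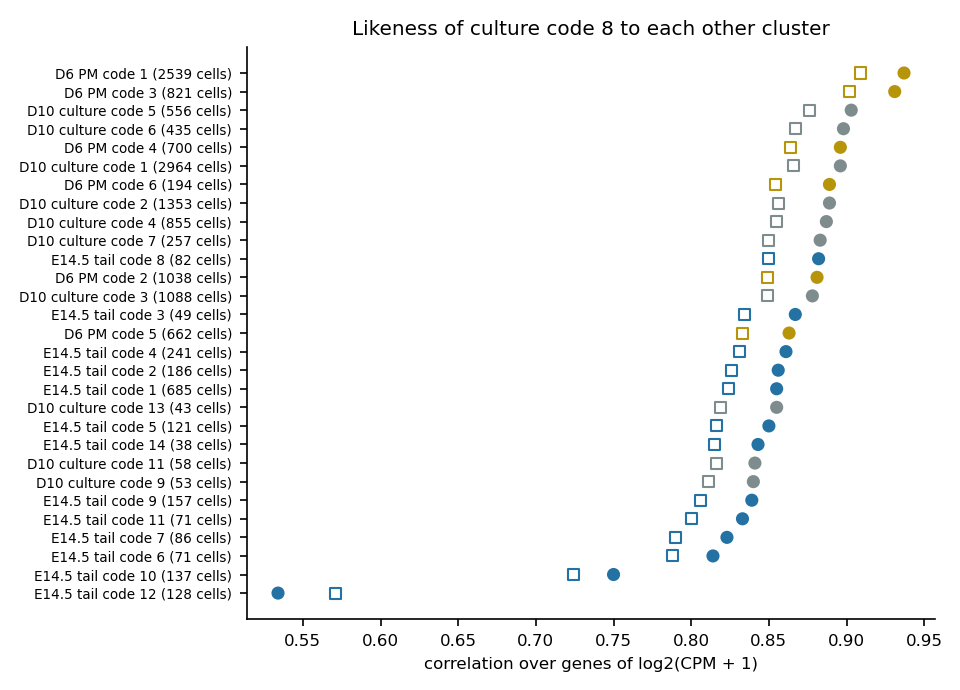
Correlation of the code 8 profile with each other cluster of at least 30 cells, over genes of log2(CPM + 1); filled circles are Pearson's r, open squares Spearman's rho, yellow D6 PM, grey the culture and blue the tail. D6 PM code 1 is the highest at 0.937, and tail code 8, the highest of the tail clusters, stands in the middle at 0.882.

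D6 PM code 1, with 2539 of the 5954 D6 cells, was itself an Epcam-high set with Foxa1, Foxa2 and Sox17, and had not seen TGFβ1, SAG or FGF2. Time, treatment and library cannot be told apart in this comparison. Of 8485 genes that passed, 1070 were at least 2-fold higher in the D10 cells (12.6%) and 503 lower (5.93%); the median over all genes was 0.15 on the log2 scale, and relative to it the counts were 861 and 663. Of the 20 general epithelial genes, 11 were higher and none lower, with Krt19 at 1270 CPM against 274. Of the 13 endoderm factors, 11 passed, 3 were higher and 2 lower.

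Of the serum protein list, 15 genes passed, 9 were higher and 3 lower, beside 12.6% and 5.93% of all genes. Genes such as Afp, with a UMI in 0.473% of D6 PM code 1, entered through the code 8 cells alone, so that this count is a description. Of 20 proliferation genes 13 were higher and none lower, with a summed level of 2170 CPM against 836, and 6034 in D6 PM code 3. That level rested on group 4, which had 8281 CPM, whereas the other code 8 cells had 908. The count of higher genes without group 4 was not computed. Of 10 CDK inhibitors that passed, 6 were higher. Afp was at 1193 CPM against 0.77, Ttr at 447 against 18.3, Fgb at 140 against 4.73 and Serpina1b at 133 against 0.275. Alcam, an adhesion molecule, was at 353 CPM against 1.49, and Anxa1, an annexin, at 177 against 0.66. The genes that were lower included early regulators. Sp5, a Wnt target, was at 12.7 CPM against 289, Ihh, a hedgehog ligand of endoderm, at 3.90 from 4 UMIs against 110, and Cfc1, a Nodal co-receptor, at 2.93 from 3 UMIs against 68.6. Dkk1 was at 95.6 against 483, and within group 2 at 349. Pga5 was at 4203 CPM against 336, and without group 2 it was 0.438-fold of D6 PM code 1.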

How the data were processed

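The tables deposited by the authors hold counts (UMIs of each gene in each cell, not normalized) from Cell Ranger on 10x 3′ v3 libraries. Reads that mapped to several places were ignored. The genome reference is not given in the sources used here. The authors removed cells above 7.5% mitochondrial UMIs and 2% of cells at each end, and gave each cell a cluster code (Seurat 3.0). Counts were summed over the cells of a set and divided by the set's total (CPM). Intervals at 95% are exact (Poisson for levels, conditional binomial for ratios, Clopper-Pearson for shares of cells) and cover counting error only. A gene at 0 was given a floor of 3 counts over its set. Genes detected in 10% or more of the cells of one set entered the counts of genes past 2-fold. A gene that entered through 1 set alone tends to come out higher in that set, so that the counts for a list are descriptions. Cells were thinned to 3000 UMIs for shares. Code 8 cells were clustered with scanpy 1.11.5 (2000 variable genes, 15 components, 15 neighbours, Leiden resolution 0.5, leidenalg 0.10.2). Scripts ran in Python 3.11.15 and were tested on simulated data.

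Cells are not replicates, so no test between conditions was made. The cells and the 34 gene lists (463 genes, 450 with a row) were chosen with earlier results of these data known. Genes were named from the lists, from the 25 largest and 5 smallest ratios over the other culture cells, from the 10 in each direction against tail code 8 and D6 PM code 1 (at least 100 UMIs, and 50 CPM in the higher set), and from the 10 that lead each group (at least 30 UMIs). Promoters and a few further genes were chosen after values were seen. Krt5, Krt14 and Alb have no row in the D6 PM table. A few genes are not reported here.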

Additional observations from a re-analysis of the deposited data

How the results depend on the processing

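Each condition was 1 library, so that no result could be checked in a second culture, and genes with few UMIs have wide intervals. No paired analysis was possible because each group holds 1 library. Of 709 ratios recomputed under other settings, 557 moved by less than their interval, 146 moved by more, toward or away from 1, and 6 turned. The 6 were Cyp26a1 (0.156-fold), Otx2 (0.178-fold), Dkk1 (0.117-fold) and Car4 (0.143-fold) over the other culture cells and Pga5 over D6 PM code 1 (0.438-fold), all with group 2 left out, and Mki67 over D6 PM with code 3 in place of code 1 (0.318-fold). With code 3, the genes lower than in D6 PM numbered 793 in place of 503. At 4-fold, 432 genes were higher and 374 lower than in the other culture cells, 609 and 677 against tail code 8, and 367 and 128 against D6 PM code 1. With a UMI required in 25% of cells, these were 461 and 395, 839 and 1211, and 461 and 251. Fewer genes could pass at these settings. The correlation with D6 PM code 1 was 0.794 over the listed genes alone. The number of groups was 3 at a resolution of 0.3 and 8 at 1. Leaving out the Pou5f1-high cluster raised the folds of Epcam to 10.97, Cdh1 to 11.5, Apoe to 3.29, Sfn to 40.9 and Otx2 to 10.8; its cells hold these genes. The mean over cells in place of summed UMIs gave Epcam 8.58-fold and Afp 141-fold. Leaving out group 2, the 83 cells that clustered with code 8, the Gcg cells or the Scx cells, and taking D6 PM code 3, were settings chosen after seeing the data.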

Other observations

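Some further genes stood higher in the code 8 cells than in the other culture cells. Psca, a surface protein of stomach and bladder lining, was at 86.8 CPM from 39 cells against 0.267 in the other culture cells, with 101, 75.5, 102 and 57 CPM in groups 1 to 4. Tph1, the enzyme that starts serotonin synthesis in gut, was at 99.5 CPM from 45 cells against 0.802, with 83.6, 147, 62.1 and 97 CPM. Krt20, a keratin of gut and bladder lining, was at 49.8 CPM from 27 cells against 0.955, with 0 in group 2. Tmprss2, a surface protease of many epithelia, was at 39.0 CPM against 0.21, and at 280 in D6 PM code 1. Cdh6, a cadherin of kidney and other embryonic epithelia, was at 156 CPM against 5.08, with 251, 32.4, 28.2 and 268 CPM in groups 1 to 4.

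The 83 culture cells of other codes that clustered with code 8 had 1874 CPM of Afp, 994 of Pga5 and 1648 of Krt8. An Afp UMI was found in 15 of the 83 cells, a Pga5 UMI in 13 and a Krt8 UMI in 63. The 83 cells also had 860 CPM of Scx and 492 of Col1a1, with an Scx UMI in 39 of them and an Epcam UMI in 34. The doublet caller marked 5 of the 83.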
